A study of Homo sapiens with 64 samples.

Results

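BEAS-2B cells, an immortalised line from human bronchial epithelium, were held under vehicle for 6 h and compared with the same cells under vehicle for 1 h. Of 64 arrays in the study, 8 made up this comparison, with 4 replicates labelled at 6 h and 4 at 1 h. The arrays were chosen by their labelled treatment and time, not by any measured value. In both groups, as in all 64 samples, the medium was serum-free and made for keratinocytes, with epidermal growth factor and pituitary extract at first and with no supplement named for the last day before treatment. The composition of the vehicle is not given in the labels. Cells given 10 nM GSK 256066, a drug that blocks the cAMP-degrading enzyme phosphodiesterase 4, for 6 h and for 1 h supplied a further 8 arrays over the same interval, and vehicle arrays at 2 and 18 h placed the comparison in its time course. Indacaterol arrays entered only the estimate of spread. The comparison asks how far gene expression moved in cells that received no drug, the baseline against which drug effects at each time are read.

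Immediate early genes are switched on within minutes of a stimulus such as a growth factor, a change of medium or handling, without the need for new protein, and their mRNAs are short-lived. Many encode transcription factors, among them the AP-1 subunits of the FOS and JUN families, EGR1 and the NR4A nuclear receptors. Mitotic genes follow another rhythm: their transcripts build up in late G2 and M phase and are low in early S phase, when genes for DNA replication are highly expressed.

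EGR1 is shown for its CArG boxes, the elements bound by serum response factor, and CCNB2 and CDC20 for CCAAT boxes (CCAAT) and for the cell cycle genes homology region, or CHR (TTTGAA). The sequences are RefSeq, build GRCh38.p14, given 5′ to 3′ on the gene's strand, and each holds the 250 bases before the annotated start. EGR1 lies at chr5:138465229-138465478 on the plus strand, CCNB2 at chr15:59104896-59105145 on the plus strand, and CDC20 at chr1:43358731-43358980 on the plus strand. Capitals mark the CArG boxes in EGR1, and the CCAAT and CHR letters on either strand in the other two.
EGR1: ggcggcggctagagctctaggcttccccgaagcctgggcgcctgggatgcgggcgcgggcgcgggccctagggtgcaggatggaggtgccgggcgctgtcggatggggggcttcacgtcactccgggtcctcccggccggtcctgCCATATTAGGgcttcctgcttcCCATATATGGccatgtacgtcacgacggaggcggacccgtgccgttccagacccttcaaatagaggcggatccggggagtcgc
CCNB2: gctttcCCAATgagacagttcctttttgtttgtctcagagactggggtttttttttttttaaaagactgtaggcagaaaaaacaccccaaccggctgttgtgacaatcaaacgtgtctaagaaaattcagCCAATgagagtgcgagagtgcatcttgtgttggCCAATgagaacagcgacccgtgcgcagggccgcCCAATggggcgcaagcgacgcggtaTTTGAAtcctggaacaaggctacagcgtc
CDC20: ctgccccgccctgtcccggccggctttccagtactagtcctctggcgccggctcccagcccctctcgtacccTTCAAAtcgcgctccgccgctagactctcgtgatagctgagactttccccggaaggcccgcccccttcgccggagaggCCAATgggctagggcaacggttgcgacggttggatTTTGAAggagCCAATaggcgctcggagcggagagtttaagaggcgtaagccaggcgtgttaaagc

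The upper quartile of signal was lower on every 6 h array (544.5 to 559.1) than on every 1 h array (564.8 to 592.7), while the lower quartile leaned the other way, from 37.57 to 38.72 at 6 h and from 35.88 to 38.08 at 1 h. The part of this in the numbers of falls and rises was not tested. The ratio of 3′ to 5′ GAPDH signal, a sign of RNA length, was 0.856 to 0.899 at 6 h and 0.847 to 0.894 at 1 h. The epithelial keratins KRT8 and KRT18 averaged 5329 and 8301 at 6 h and 5202 and 8304 at 1 h, and none of the epithelial, fibroblast, leukocyte, endothelial, ciliated or secretory markers was called. Replicate 3 stood apart at both times, with KRT14, a basal keratin, at 355026 at 6 h and 284045 at 1 h. The labels do not say that the replicates were separate cultures, so p-values measure the spread between these samples, and 4 arrays a group limit the precision.

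At 6 h the cells held less transcript of 6 immediate early genes and of genes that act in mitosis, and of some antisense transcripts and zinc finger genes, while far fewer genes had risen. Each gene was read from its brightest probe set as log2(signal + 16), a scale on which changes of dim genes come out too small, and was called at a Benjamini-Hochberg adjusted p under 0.05 in limma. Of 19775 genes tested, 240 (1.21%) were called, 211 lower at 6 h (1.07%) and 29 higher (0.147%). In 6 of the falls and 0 of the rises the change passed 2-fold. All 240 moved the same way in each of the 4 pairs of same-numbered replicates; of all genes tested, 20.2% were lower in all 4 pairs and 13.9% higher. Of those called, 205 of the falls and 27 of the rises had no overlap between the groups. Across all genes tested, 1043 (5.27%) were below at 6 h without overlap and 531 (2.69%) above. With replicate number as a block, 1397 genes (7.06%) were called, 1084 lower (5.48%) and 313 higher (1.58%), and these held all 240. With quantile normalization the split was 212 lower and 104 higher.

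EGR1, a zinc finger transcription factor that responds to growth factor and stress signals, had the greatest called fall. Its signal was 1291, 1292, 1189 and 984.5 at 6 h, against 4636, 5309, 5431 and 4981 at 1 h. Every 6 h array lay far below every 1 h array, and the log2 change was -2.09 ± 0.21 (SE, n = 4 each, limma adjusted p = 6.99e-10). Its 2 other probe sets changed by -1.77 and -2.18.

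FOSB, an AP-1 subunit, read 19.0, 25.8, 6.63 and 3.43 at 6 h, against 71.8, 82.8, 73.7 and 101.5 at 1 h. It was dim at 6 h on every array, and its log2 change was -1.79 ± 0.24 (limma adjusted p = 2.47e-06). NR4A1, an orphan nuclear receptor, read 105.7, 90.0, 59.5 and 59.0 at 6 h, against 321.0, 264.2, 266.0 and 252.4 at 1 h, with no overlap. Its log2 change was -1.65 ± 0.26 (limma adjusted p = 0.000172), and its 2 other probe sets gave -1.61 and 0.17.

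IER2, a small nuclear protein of the immediate early class, had signals of 2388, 2200, 1821 and 1962 at 6 h, against 3717, 3640, 3514 and 4099 at 1 h. The groups did not overlap and the log2 change, -0.84 ± 0.08 (limma adjusted p = 6.99e-10), had a small error. MYC, the growth-promoting transcription factor, had 1964, 1902, 1523 and 1729 at 6 h, against 2932, 2645, 4472 and 2690 at 1 h. The 1 h array of replicate 3 was far above the others, and the log2 change was -0.81 ± 0.14 (limma adjusted p = 0.00107). IER3, a regulator of cell survival, had 1084, 940.1, 713.7 and 784.9 at 6 h, against 2184, 1852, 3567 and 1600 at 1 h. Its log2 change of -1.32 ± 0.28 (limma adjusted p = 0.00517) again held the highest value of all on the 1 h array of replicate 3. Without replicate 3 neither MYC (adjusted p = 0.085) nor IER3 (adjusted p = 0.162) was called.

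In all, 6 of 19 measured immediate early genes were called lower and 0 higher, and 10 of 19 were below at 6 h without overlap. The median log2 change was -0.72 over the list and -0.00054 over all genes tested. Fitted with the replicate block, 13 of 19 were lower. The 7 that this added were FOS, FOSL1, JUN, JUNB, JUND, ATF3 and NR4A3. FOS, the AP-1 subunit that gives its family the name, had signals of 63.5, 57.2, 80.8 and 25.8 at 6 h, against 280.1, 227.5, 335.5 and 143.7 at 1 h. The change was -1.90, -1.73, -1.86 and -1.93 in the 4 replicate pairs, and the limma adjusted p of the mean change, -1.86 ± 0.53, was 0.0665 without the block and 6.32e-07 with it. JUN changed by -0.72 ± 0.27 (limma adjusted p = 0.22, and 7.55e-05 with the block), and its other 3 probe sets fell further, by 1.17, 1.01 and 0.68 on the log2 scale. FOSL2 (-0.00054), IER5 (-0.17), IER5L (-0.23), EGR3 (-0.19), NR4A2 (-0.17) and EGR4 (0.23) were not called in either fit, and the 2 other, dim probe sets of EGR4 gave -0.13 and -0.20. The other, dimmer probe sets of FOSL2 were all lower at 6 h, with log2 changes of -0.32, -0.20, -0.34 and -0.24. Leaving replicate 3 out of both groups gave 4 of 19 called and a median of -0.60, and leaving it out of all 64 arrays gave 8.

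**Figure D1:**
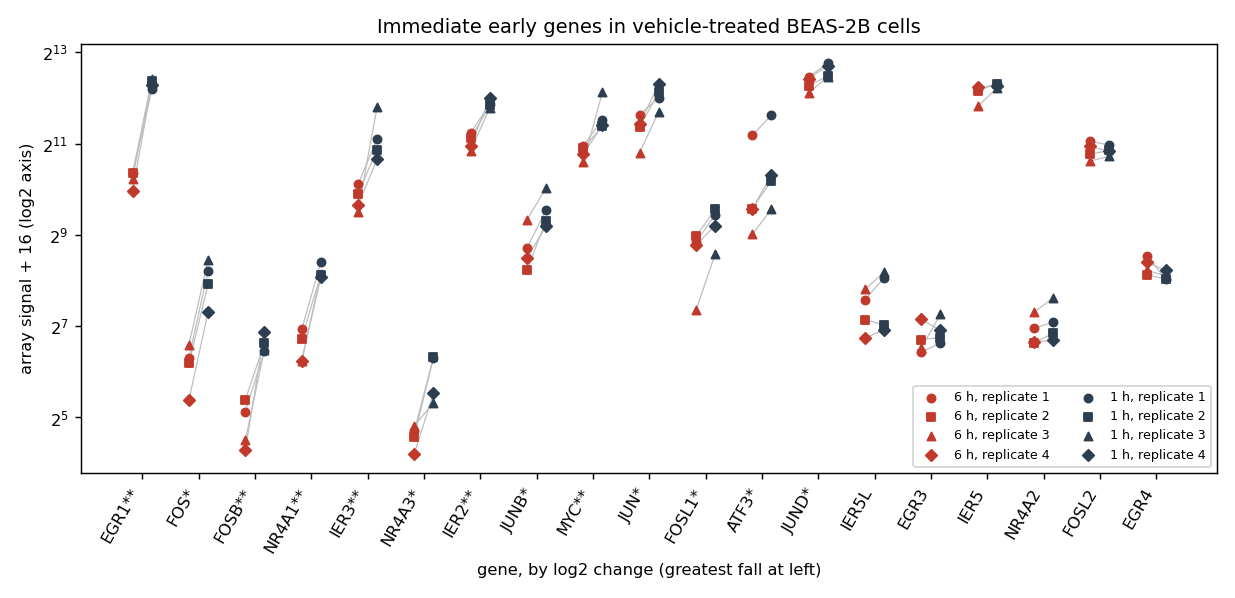
Array signal plus 16 on a log2 axis for the 19 immediate early genes measured, with 6 h points (red) left of 1 h points (dark) and a line joining arrays of the same replicate number. A double asterisk marks the 6 genes called lower and a single asterisk the 7 called lower only with the replicate block. On the brightest probe set, the one drawn, EGR1 averaged 1189 at 6 h and 5089 at 1 h, and FOSL2 averaged 1832 and 1824. The other probe sets of FOSL2 were lower at 6 h.

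Lists of neighbouring pathways held few calls. Among 24 outputs and feedback regulators of the ERK pathway, which carries growth factor signals to the nucleus, 0 were called and the median log2 change was -0.21 (-0.11 without the 6 h array of replicate 3). With the block the phosphatases DUSP4 (-0.44 ± 0.14) and DUSP5 (-0.71 ± 0.35) and the receptor inhibitor ERRFI1 (-0.51 ± 0.34) were called lower. Of 21 measured targets of the mechanically controlled coactivator YAP, 1 was called: CCN2, a secreted matricellular protein, had 2322, 2052, 1568 and 1921 at 6 h, against 4179, 4564, 4901 and 5340 at 1 h. The groups were well apart (log2 change -1.27 ± 0.28, limma adjusted p = 0.00876), yet the list's median was 0.0092, and -0.027 to 0.066 under the other settings. With the block its relative CCN1 was also called lower (-0.33 ± 0.19), and IGFBP3, a binding protein of insulin-like growth factors, higher (0.44 ± 0.17). CCN2 was not called without replicate 2, 3 or 4 (limma adjusted p of 0.061, 0.114 and 0.09).

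Of 19 CREB targets and cAMP regulators, 3 were called lower, FOSB and NR4A1 as above and PDE4A, a cAMP phosphodiesterase that GSK 256066 inhibits. PDE4A had 530.7, 556.4, 489.5 and 528.9 at 6 h, against 746.8, 718.8, 635.6 and 661.5 at 1 h, a log2 change of -0.38 ± 0.10 (limma adjusted p = 0.0326). Its 4 other, dimmer probe sets ranged from -0.10 to 0.27. The block further called lower NR4A3 (-1.29 ± 0.58), the kinase SIK1 (-0.75 ± 0.38) and the CREB coactivator CRTC2 (-0.28 ± 0.10). APOLD1, known in rats as an early-response gene of endothelial cells, was in no list. It had 374.0, 381.0, 376.9 and 354.9 at 6 h, against 884.6, 744.3, 797.0 and 772.4 at 1 h, 2 narrow ranges far apart (log2 change -1.07 ± 0.14, limma adjusted p = 1.52e-06).

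Of 37 mitotic genes measured, 13 were called lower and 0 higher, all 37 fitted changes were negative, and the median log2 change was -0.31. The block raised the called number to 22, and 20 of 37 were below at 6 h without overlap. In bulk RNA, fewer cells in mitosis and less of these RNAs per cell cannot be told apart. CDC25C, the phosphatase that activates CDK1 at the entry to mitosis, had 1127, 1244, 1021 and 1074 at 6 h, against 2180, 2214, 1741 and 1716 at 1 h. No array of one time reached the range of the other, and the log2 change was -0.80 ± 0.11 (limma adjusted p = 2.91e-06). Its 2 other probe sets changed by -0.91 and -0.50.

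PLK1, the Polo-like kinase of mitotic entry and spindle assembly, had 947.6, 1097, 850.0 and 804.1 at 6 h, against 1662, 1736, 1488 and 1104 at 1 h. The highest 6 h array and the lowest 1 h array nearly met, and the log2 change was -0.68 ± 0.14 (limma adjusted p = 0.00581). CCNB1, the B-type cyclin that partners CDK1, had 6476, 5813, 5946 and 5558 at 6 h, against 8479, 8774, 8873 and 7043 at 1 h (log2 change -0.47 ± 0.12, limma adjusted p = 0.0326). CCNB2, its relative, had 3792, 3693, 3695 and 3510 at 6 h, against 5692, 5242, 5442 and 4376 at 1 h (-0.49 ± 0.11, limma adjusted p = 0.00839). Both cyclins were separated by time on every array.

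CDC20, the activator of the anaphase-promoting complex, fell by 0.44 ± 0.11 on the log2 scale (limma adjusted p = 0.0215), and PTTG1, the securin that this complex destroys, fell by 0.31 ± 0.06 (limma adjusted p = 0.00417). The other called members were the kinesins KIF20A and KIF2C, the centromere proteins CENPA and CENPF, the chromosomal passenger protein CDCA8, the Aurora A activator BORA and the spindle protein DLGAP5, with log2 changes between -0.62 and -0.43. The block added 9, AURKA (-0.52 ± 0.16), BUB1 (-0.58 ± 0.17), CENPE (-0.62 ± 0.19), TPX2 (-0.40 ± 0.12), KIF14 (-0.56), UBE2C (-0.28), INCENP (-0.26), BUB1B (-0.23) and BIRC5 (-0.19). On its brightest probe set CDK1 itself had nearly equal levels, averaging 6125 at 6 h and 6152 at 1 h (log2 change -0.01 ± 0.12, limma adjusted p = 0.996). Its other probe sets were slightly lower, with -0.14, -0.11 and -0.21. Leaving replicate 3 out of both groups gave 4 of 37 called, and leaving it out of all 64 arrays gave 7.

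Of 39 replication genes measured, 35 had a positive fitted change, 1 was called higher and 0 lower, and the median log2 change was 0.15. The called member was RFC3, a subunit of the clamp loader that places PCNA on DNA. It had 4987, 4559, 4740 and 5151 at 6 h, against 3998, 3342, 3894 and 3319 at 1 h, with no overlap (log2 change 0.42 ± 0.09, limma adjusted p = 0.00476). Its 2 other probe sets gave 0.43 and -0.33, and it was not called when probe sets were averaged (adjusted p = 0.537). FEN1, the flap nuclease, was called with the block only (0.23 ± 0.09). The MCM helicase subunits MCM2 to MCM7 had log2 changes between 0.14 and 0.25, none called, and the licensing factor CDT1 had -0.11. RPA2, the single-strand binding subunit and no member of the list, rose by 0.23 ± 0.06 (limma adjusted p = 0.0398). Of 20 cyclins of G1, CDK inhibitors and BTG genes, 1 was called, CDK4, the kinase of G1 progression, which rose by 0.24 ± 0.06 (limma adjusted p = 0.0179). With the block CCNG1 (-0.20 ± 0.06) was called lower as well.

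**Figure D2:**
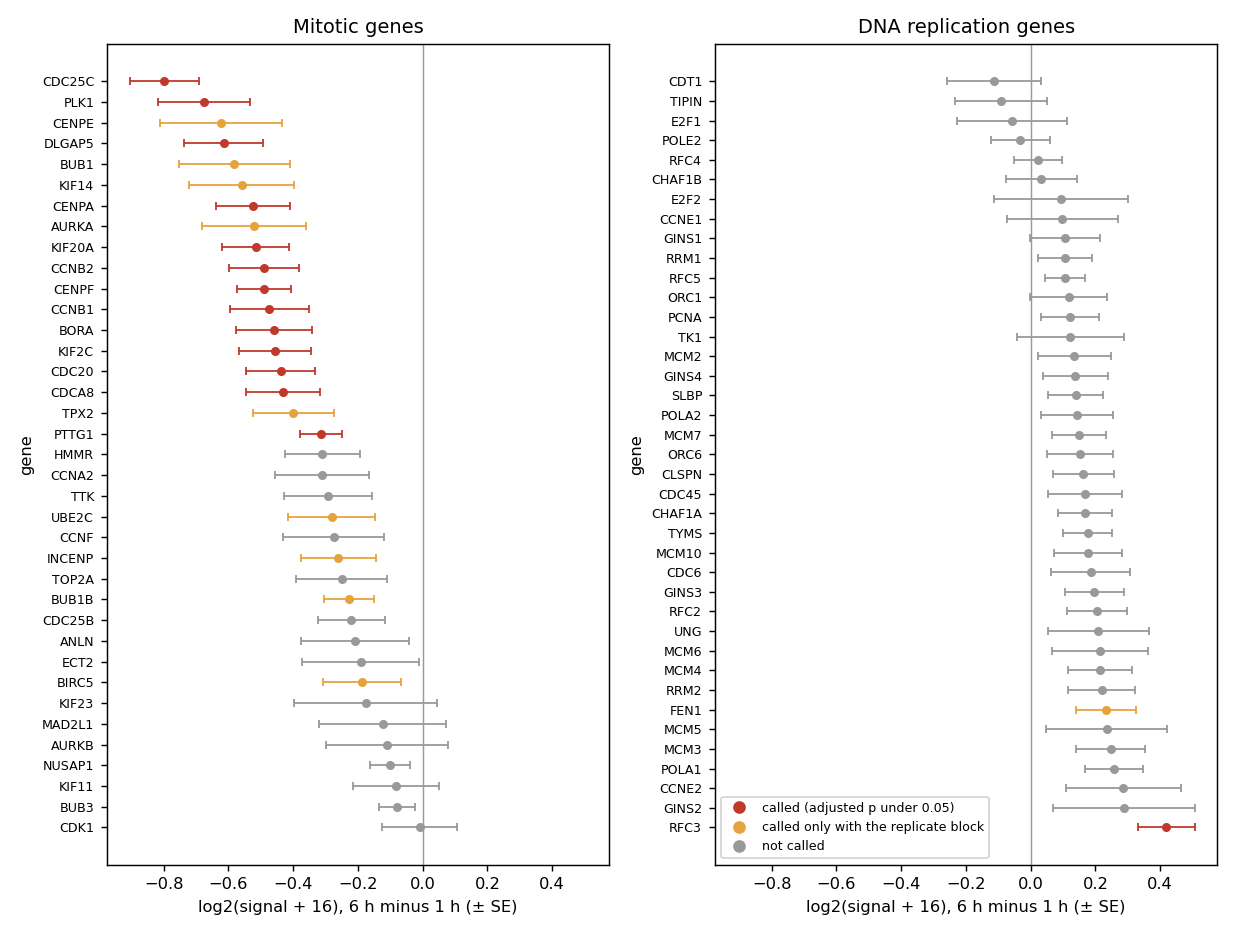
Log2 change of signal, 6 h minus 1 h, with its SE (4 arrays per group), for 37 mitotic genes (left) and 39 DNA replication genes (right). Red points were called, amber points only with the replicate block and grey points in neither fit; all 37 mitotic changes lie below 0, and 35 of the 39 replication changes lie above it.

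The elements shown above were searched in the promoters of each group. Within 250 bases before the start, TTTGAA on either strand was present in 7 of 13 promoters of mitotic genes called lower (53.8%), in 17 of 31 mitotic promoters found in the RefSeq table (54.8%), in 1 of 35 replication promoters (2.86%) and in 10.6% of 15382 tested genes with a promoter in the table. CCAAT was present in 11 of 13 called mitotic promoters (84.6%) and in 25 of 31 mitotic promoters (80.6%). It was present in 19 of 35 replication promoters (54.3%), against 34.1% of tested genes. A CArG box was found in 1 of 14 immediate early promoters, that of EGR1, against 1.14% of tested genes. These are matches of letters and were set against no binding data.

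The rises that passed the test were small, and some were in genes near the floor of the array. CYP4V2, a fatty acid omega-hydroxylase, rose most. It had 156.7, 217.7, 203.7 and 223.3 at 6 h, against 93.2, 110.1, 133.0 and 120.5 at 1 h (log2 change 0.73 ± 0.14, limma adjusted p = 0.00196). The groups did not overlap, but its 3 other probe sets gave 0.51, 0.21 and -0.51. CPA4, a secreted carboxypeptidase, had 2241, 2228, 1691 and 2213 at 6 h, against 1206, 1280, 1182 and 1437 at 1 h (0.70 ± 0.17, limma adjusted p = 0.0188). WDR4, a subunit of a tRNA methyltransferase, had 1029, 1135, 826.1 and 968.5 at 6 h, against 722.9, 706.2, 677.3 and 596.9 at 1 h (0.53 ± 0.12, limma adjusted p = 0.00959). In each of these every replicate pair was higher at 6 h.

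SRM, the spermidine synthase, had 2135, 2115, 2111 and 2224 at 6 h, against 1807, 1780, 1785 and 1794 at 1 h, a small but tight rise (0.26 ± 0.06, limma adjusted p = 0.0161). MYBBP1A, a nucleolar protein, rose by 0.31 ± 0.08 (limma adjusted p = 0.0353). Both belong to the list of ribosome biogenesis genes, although SRM makes a polyamine and is not itself a ribosome assembly factor. Of the list, 2 of 26 measured were called higher and 0 lower, 24 had positive fitted changes, and the median was 0.11 (0.18 with quantile normalization). With the block 5 of 26 were higher, adding the RNA polymerase I subunit POLR1A and the assembly factors WDR12 and NOP16. Outside the list, and chosen after their values were seen, POLR3B, an RNA polymerase III subunit, rose by 0.39 ± 0.09, RPP40, a subunit of RNase P, by 0.35 ± 0.08, and MTHFD1, a folate enzyme of nucleotide synthesis, by 0.37 ± 0.08.

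The SR proteins, which direct splicing, moved in both directions. SRSF5 had 4429, 4456, 3708 and 3593 at 6 h, against 6055, 6257, 6435 and 6553 at 1 h. It was lower on every 6 h array by a wide margin (log2 change -0.65 ± 0.06, limma adjusted p = 8.36e-10). SRSF1 had 7992, 8064, 8457 and 7849 at 6 h, against 6123, 6070, 7127 and 5380 at 1 h (0.40 ± 0.09, limma adjusted p = 0.017). Of 19 measured SR factors and CLK kinases these were the only 2 called. With the block SRSF8 (0.21), SRSF10 (0.28) and TRA2B (0.19) were also higher. The probe sets of SRSF1 split: among 7 others, 4 gave log2 changes of 0.43 to 0.70 and 3 gave -0.69, -0.67 and -0.25, and SRSF1 was not called when all were averaged (adjusted p = 0.754). For SRSF5 the next brightest probe set gave -0.72 and the dimmest 0.17.

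**Figure D3:**
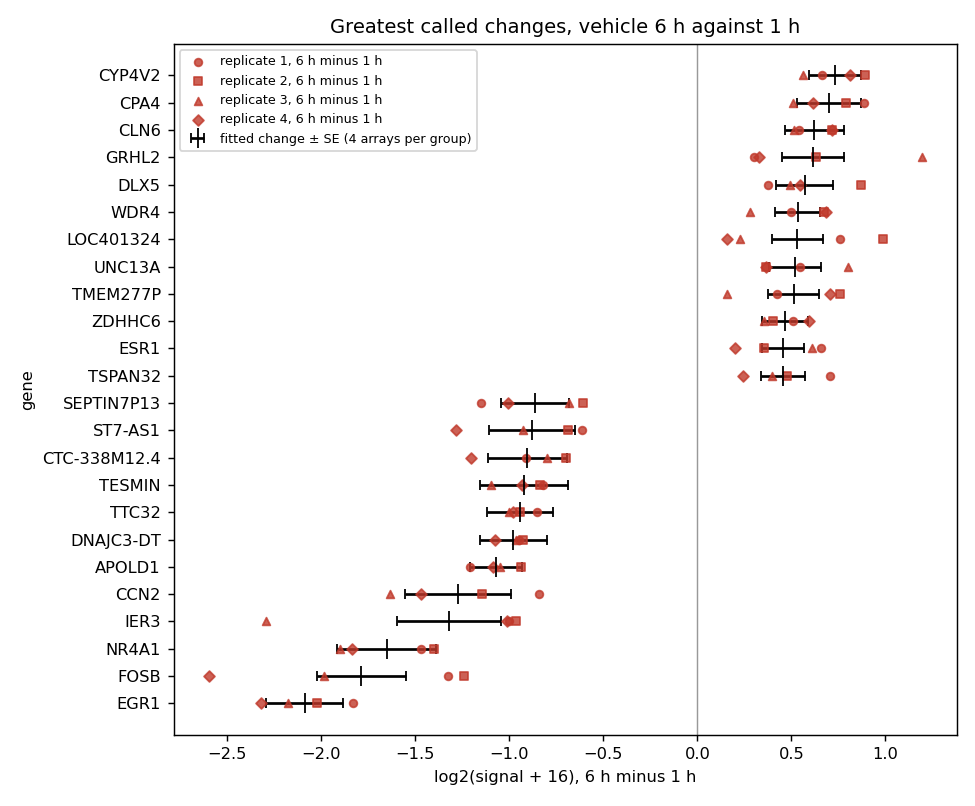
Log2 change of signal, 6 h minus 1 h, for 24 called genes with no overlap between the groups, the 12 with the highest and the 12 with the lowest change, with red symbols for the 4 pairs of same-numbered arrays and black bars for the fitted change and its SE. EGR1 (-2.09) and FOSB (-1.79) lie farthest from 0, and every pair of every gene lies on the side of its mean.

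Some of the falls were in noncoding transcripts. Of the 211 genes called lower, 36 were lncRNAs by RefSeq biotype (17.1%), against 13.4% of all genes tested and 6.74% of those with a mean signal of at least 100. The share was 11.5% of the falls called with the block and 9.01% of the falls under GSK 256066, both below that of all genes tested. By symbol, 20 of 211 were antisense, divergent or intronic transcripts (9.48%), and 0 of the 29 rises were. Such transcripts were 5.08% of all genes tested and 2.85% of those with a mean signal of at least 100. They made up 6.83% of the falls with the block and 5.41% of those under GSK 256066. Over all 1005 of them the median log2 change was 0.022, and over all 2657 lncRNAs it was 0.049. The lncRNA DNAJC3-DT lay between 39.3 and 71.6 at 6 h, against 91.7 to 150.6 at 1 h (log2 change -0.98 ± 0.18, limma adjusted p = 0.00107), and its second probe set gave 0.07. For 18 of the 20 the gene named in the symbol was also tested. The median log2 change was -0.55 over these transcripts and 0.0067 over those genes, of which 1, PNISR, was called. GABPB1-AS1 (-0.49) and GABPB1-IT1 (-0.63) were lower beside GABPB1 at 0.24 (limma adjusted p = 0.219). The transcripts were in this set because they were called, so the 2 medians are a description. ST7-AS1 (-0.88 ± 0.23), the pseudogene SEPTIN7P13 (-0.86 ± 0.18) and CTC-338M12.4 (-0.90 ± 0.21) were also among the 12 greatest falls.

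Zinc finger genes by symbol made up 17 of the 211 falls (8.06%), against 2.77% of all genes tested and 3.2% of those with a mean signal of at least 100, and 0 of the rises. With the block they were 5.35% of the falls, and under GSK 256066 6.31%. Over 547 such genes the median log2 change was -0.10 under vehicle and -0.041 under GSK 256066. Among genes with a mean signal of at least 100, the vehicle median was -0.11 over 431 zinc finger genes and -0.024 over all genes. ZNF404 had the greatest called fall of these, averaging 472.8 at 6 h and 780.0 at 1 h (-0.70 ± 0.12, limma adjusted p = 0.000261). ZNF274, a repressor of other zinc finger genes, averaged 780.5 at 6 h and 1219 at 1 h (-0.63 ± 0.13, limma adjusted p = 0.00581). Other coding genes among the greatest falls were TTC32, a tetratricopeptide repeat protein (-0.94 ± 0.18, limma adjusted p = 0.00171), and TESMIN, a testis-expressed DNA-binding protein (-0.92 ± 0.23, limma adjusted p = 0.0287), whose second probe set gave -0.35.

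Other programmes also held few calls. XBP1, the transcription factor of the unfolded protein response, had 1713, 1476, 1910 and 1840 at 6 h, against 2533, 2132, 2882 and 2744 at 1 h (-0.56 ± 0.15, limma adjusted p = 0.0381), and it was the only 1 of 31 members of its list called. The list median was -0.11, but -0.04 with averaged probe sets and -0.05 without the 1 h array of replicate 3. The block called 6 of the 31 lower, among them the phosphatase subunit PPP1R15A (-0.62 ± 0.19), HERPUD1 (-0.27 ± 0.10), EDEM1 (-0.34 ± 0.10) and HYOU1 (-0.16 ± 0.11), and 1 higher, the cystine transporter SLC7A11 (0.60 ± 0.27). In the glucocorticoid-inducible list 0 of 22 were called, with a median of -0.24 that became -0.09 without the 1 h array of replicate 3, -0.11 without that of replicate 1, and -0.12 and -0.15 without the 6 h arrays of replicates 2 and 4. The block called 5 of these lower, including the NF-kB inhibitor NFKBIA (-0.61 ± 0.23) the kinase SGK1 (-0.57 ± 0.23) and the transcription factors CEBPD (-0.44 ± 0.17) and CEBPB (-0.28 ± 0.12), and FKBP5 higher (0.19 ± 0.20). Of 24 FOXO and glucose-sensing targets 0 were called, and the block called 5 lower, with IRS2 at -0.37 ± 0.10, TXNIP at -0.35 ± 0.21, SESN3 at -0.66 ± 0.25, YPEL3 at -0.40 ± 0.12 and YPEL5 at -0.36 ± 0.12. The other, dim probe sets of SESN3 split, from -0.40 to 0.14, and that of YPEL3 gave 0.11, whereas those of IRS2, TXNIP and YPEL5 were lower. ID1, a SMAD target, showed the distance between replicates: it had 882.5, 214.7, 2511 and 189.9 at 6 h, against 1882, 354.9, 4497 and 428.3 at 1 h. The groups overlapped widely, each pair was lower by 0.68 to 1.11 on the log2 scale, and ID1 was called only with the block (limma adjusted p = 0.878 without it and 0.000506 with it).

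Interferon-stimulated genes had positive fitted changes in 31 of 32 cases, with a median of 0.30, and 0 were called. MX2 and MX1, antiviral GTPases, were called with the block (1.10 ± 0.85, limma adjusted p = 0.725 without it and 0.0296 with it, and 0.92 ± 0.52, limma adjusted p = 0.552 and 0.033). MX1 had 2223, 2737, 1282 and 1308 at 6 h, against 985.7, 1083, 619.3 and 1163 at 1 h. The groups did not overlap, and the pair changes were 1.16, 1.32 and 1.03 in replicates 1, 2 and 3 and 0.17 in replicate 4. Of 29 cytokines and chemokines and 26 sterol and fatty acid synthesis genes 0 were called in either fit. In 11 further lists, of Kruppel-like factors, SMAD targets, NF-kB feedback genes, growth factors, clock genes, heat shock proteins, hypoxia, NRF2 and p53 targets, matrix proteases and squamous genes, 0 members were called without the block.

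With the block 10 of these 11 lists held calls. Of all genes tested 7.06% were called that way, 5.48% lower and 1.58% higher. The counts ran from 1 higher of 19 NRF2 targets to 1 higher and 2 lower of 14 Kruppel-like factors. At that share 1 or 2 calls are no result about a list, and the share also stands beside the block calls of the lists above. Among Kruppel-like factors KLF2 (-0.73 ± 0.22) and KLF10 (-0.62 ± 0.30) were called lower and KLF8 (0.37 ± 0.17) higher, and among SMAD targets ID1 and ID3 (-0.63 ± 0.44) lower. In the NF-kB list these were NFKBIA, the subunit RELA (-0.20 ± 0.09) and ZFP36 (-0.56 ± 0.19), an mRNA-destabilising protein, all lower. Of growth factors, the vasoconstrictor EDN1 (-0.64 ± 0.18) and TGFB1 (-0.38 ± 0.12) were lower and INHBA (0.42 ± 0.14) and KITLG (0.29 ± 0.36) higher. The other, dimmer probe sets of TGFB1 (0.30) and INHBA (-0.20 and -0.07) went the other way, and those of EDN1 and KITLG were mixed. The clock genes NR1D2 (-0.61 ± 0.23) and CIART (-0.44 ± 0.19) were lower and HLF (0.51 ± 0.92) higher. Of heat shock proteins HSP90AA1 (-0.18 ± 0.05) was lower and DNAJA1 (0.20 ± 0.08) higher. Of hypoxia targets the glucose transporter SLC2A1 (0.26 ± 0.21) was higher and MXI1 (-0.24 ± 0.17) lower. The p53 targets TP53INP1 (-0.50 ± 0.26) and PLK2 (-0.42 ± 0.33) and the urokinase receptor PLAUR (-0.28 ± 0.12) were lower, SLC7A11 was the NRF2 target called, and 0 squamous genes were. The SE given is that of the fit without the block.

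Over the same interval under GSK 256066, the 211 genes lower in vehicle all had negative changes, and 26 of the 29 higher had positive ones. The 2 contrasts share no array. The GSK 256066 arrays nevertheless entered the estimate of spread behind the vehicle calls, of which 8 were made on the 8 vehicle arrays alone. Same-numbered arrays could also move together across treatments. At 1 h IER3 had 2184, 1852, 3567 and 1600 under vehicle. Under GSK 256066 it had 2218, 1944, 4143 and 1698. The 2 sets of arrays are therefore not shown to be independent. Under GSK 256066 137 genes (0.693%) were called, 111 lower (0.561%) and 26 higher (0.131%). With the block 947 (4.79%) were called, 633 lower (3.2%) and 314 higher (1.59%). Of all genes tested, 53.4% had a negative and 46.6% a positive change there. Of the 211 vehicle falls 93 were called lower, 168 with the block, and 162 were below at 6 h without overlap, against 2.92% of all genes. Of all genes tested, 1.4% were above at 6 h without overlap. Of the 29 vehicle rises 10 were called higher and 16 were above without overlap. EGR1 averaged 962.7 at 6 h and 5415 at 1 h under GSK 256066 (log2 change -2.48), and CDC25C averaged 1130 at 6 h and 1981 at 1 h (-0.80). Immediate early genes had 7 of 19 called lower there, with a median of -0.81, mitotic genes 11 of 37, with a median of -0.34, and replication genes 1 of 39 called higher, with a median of 0.21.

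The difference between the GSK 256066 and vehicle courses was tested directly, and 0 of 19775 genes were called in limma, with or without the block. At an unadjusted p under 0.05 there were 400, and 522 with the block. Both are a smaller share of the genes than the 0.05 that chance alone gives. NR4A1 changed by -2.36 under GSK 256066 and by -1.65 under vehicle, a difference of -0.71 ± 0.37 (limma adjusted p = 1). EGR1 differed by -0.40 ± 0.29. This does not show that the courses were equal.

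**Figure D4:**
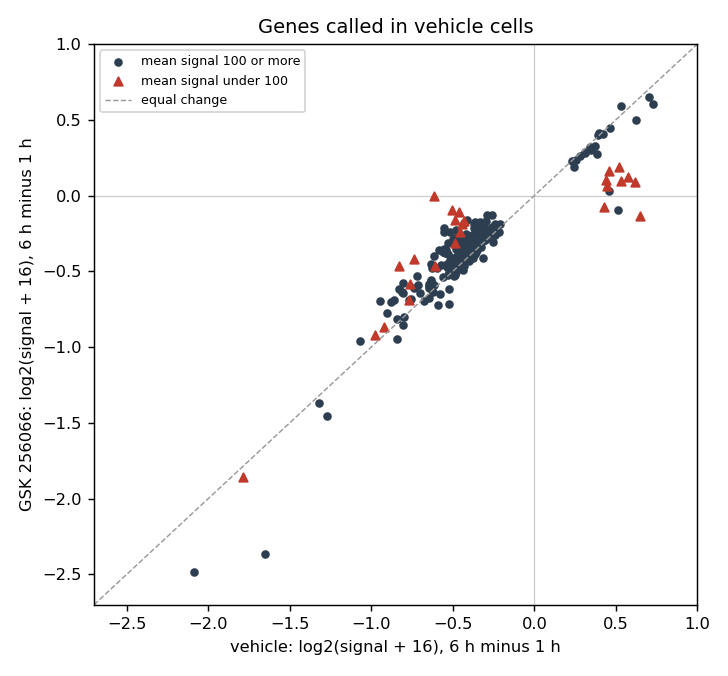
Log2 change of signal, 6 h minus 1 h, in GSK 256066 cells (vertical) against vehicle cells (horizontal) for the 240 genes called in vehicle, with the dashed line at equal change. Of the 20 brighter rises (dark points at right) all but TMEM277P and TSPAN32 lie near the line, whereas the 9 dim rises (red triangles at right) have a median of 0.094 under GSK 256066 and 0.52 under vehicle.

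Brightness divided the rises. In the 20 called rises with a mean signal of at least 100, the median log2 change was 0.31 under GSK 256066 and 0.39 under vehicle, and 10 were called there. In the 9 with a mean signal under 100, it was 0.094 under GSK 256066 and 0.52 under vehicle, and 0 were called. The genes were in these sets because they were called under vehicle, which favours high vehicle values, so the medians are a description. The dim group held ESR1, GRHL2, DLX5, UNC13A and LOC401324 of the 12 greatest rises. GRHL2, an epithelial transcription factor, had 26.9, 33.9, 51.4 and 30.6 at 6 h, against 18.7, 16.2, 13.4 and 21.1 at 1 h, all near the pseudocount of 16. ESR1, the oestrogen receptor, had 68.5, 63.0, 83.4 and 60.9 at 6 h, against 37.6, 45.8, 49.0 and 51.0 at 1 h. Of its 8 other probe sets, 6 changed by -0.06 to 0.13 on the log2 scale, and the others gave 0.53 and 0.68. TMEM277P and TSPAN32, little brighter, changed by -0.09 and 0.03 under GSK 256066, against 0.51 and 0.46 under vehicle. Over all genes with a mean signal of 50 to 100 the median log2 change was 0.079 under vehicle, against -0.0079 under GSK 256066, and over genes of 400 to 1600 it was -0.060 under vehicle, against -0.015. Markers of other cell types ranged in brightness, and 0 were called. At 6 h the 11 fibroblast markers summed to 10740 to 15690 and the 8 ciliated cell markers to 8841 to 9942. The 10 leukocyte markers measured had summed signals of 1842 to 1885 at 6 h, against 1548 to 1853 at 1 h. Among them PTPRC, the pan-leukocyte antigen, averaged 25.5 at 6 h, near the floor, with a log2 change of 0.08. The 7 endothelial markers, 0 of them called, had sums of 825.2 to 910.2 at 6 h, against 707.8 to 856.5 at 1 h. The part of these levels and of array scaling in the dim rises was not tested.

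The 2 and 18 h vehicle arrays place the 6 h values, with the same 1 h arrays as their base, so that the sets of changes are not independent. At 2 h 38 genes (0.192%) were called, 19 lower (0.0961%) and 19 higher (0.0961%), and at 18 h 315 (1.59%), 202 lower (1.02%) and 113 higher (0.571%). With the block 855 genes were called at 2 h (4.32%, 3.16% lower and 1.17% higher) and 1566 at 18 h (7.92%, 4.68% lower and 3.24% higher). The median log2 change from 1 h of the immediate early list was -0.49 at 2 h, -0.72 at 6 h and -0.43 at 18 h. EGR1 changed by -1.80, -2.09 and -1.49 at 2, 6 and 18 h, FOSB by -0.91, -1.79 and -1.95, and IER2 by -0.71, -0.84 and -1.05.

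The mitotic list had medians of -0.19 at 2 h, -0.31 at 6 h and 0.13 at 18 h, and the replication list 0.067, 0.15 and -0.20. CDC25C changed by -0.33, -0.80 and 0.13 at these times, and APOLD1 by -0.67, -1.07 and 0.31. SRSF5 differed from both, with -0.06 at 2 h, -0.65 at 6 h and -0.49 at 18 h. On every replicate the mean of the mitotic list was lowest at 6 h among the 4 times, and that of the replication list was highest there. For ribosome biogenesis genes the medians were 0.061, 0.11 and -0.12 at 2, 6 and 18 h.

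**Figure D5:**
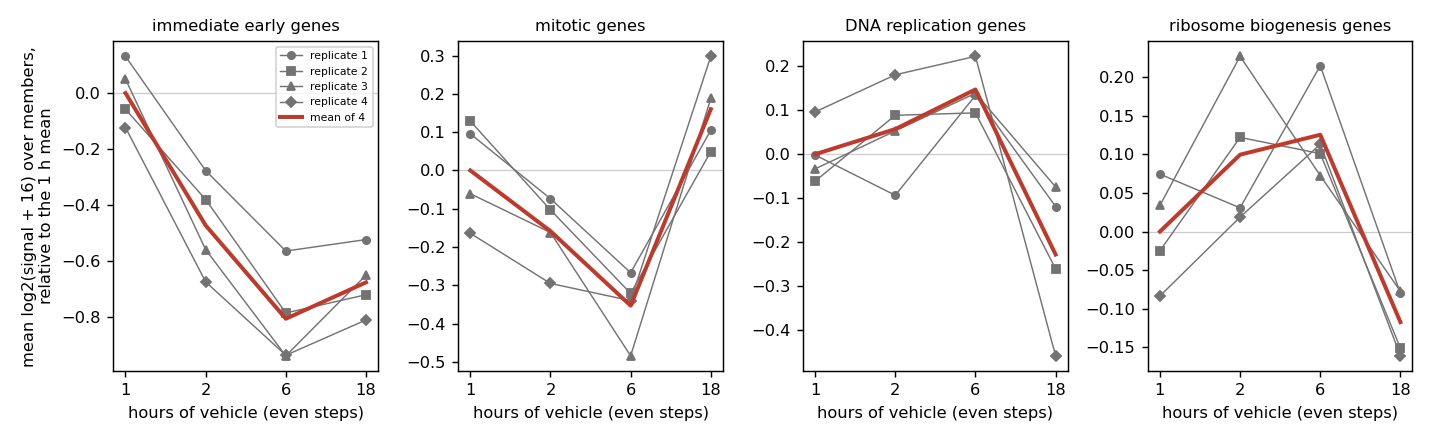
Mean log2(signal + 16) over the members of 4 gene lists on each vehicle array at 1, 2, 6 and 18 h, relative to the mean of the 1 h arrays, with a grey line per replicate number and the mean of 4 in red; the vertical scale differs between panels and the time steps are drawn evenly. The mitotic mean lies lowest and the replication mean highest at 6 h on all 4 replicates.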

How the data were processed

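Biotinylated cRNA from total RNA was hybridised to Affymetrix arrays, 4 per group in 16 groups. The deposited values are probe-set intensities on a linear scale; per the submitters' processing notes the authors used PLIER and Transcriptome Analysis Console 4, with settings not given in the sources used here. Only the 41091 of 54675 probe sets that name a single gene were used; 11721 name no gene, 1801 name several and 62 are controls. Each of 19775 genes was read from its brightest probe set, judged over all 64 arrays, as log2(signal + 16). Detection calls were not used, and the strand each probe set reads was not checked. List members without a probe set of a single symbol, such as EGR2, were not analysed here.

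A limma 3.58.1 model (R 4.3.3) with a mean per group was fitted to all 64 arrays (48 residual degrees of freedom, two-sided, Benjamini-Hochberg over all genes, called at an adjusted p under 0.05). The fit was tested on simulated data in which every array varied independently. That test did not cover arrays that deviate together by replicate number. Tables were made with Python 3.11.15. The gene lists, the comparison and its tests were chosen with earlier results of these data known. The named genes were list members and 24 called genes with no overlap between the groups, the 12 with the highest and the 12 with the lowest change. Genes described outside this rule, such as RPA2, POLR3B, RPP40, MTHFD1 and the zinc finger and antisense transcripts, were chosen after their values were seen. Replicate numbers recur in every group. Same-numbered 6 h and 1 h arrays deviated from their group means together, with r of 0.570, 0.666, 0.854 and 0.575 for vehicle and 0.583 to 0.864 for GSK 256066. Between different numbers the highest r was 0.574 for vehicle, between replicates 2 and 4, and 0.429 for GSK 256066. For vehicle this nearly equals the same-number r of replicate 4, so replicates 2 and 4 were not clearly told apart. The numbers were taken to pair the samples. Counts and list members called with replicate number as a block are given beside the others. Alternatives covered the block, scaling, pseudocount, dim genes, probe-set averaging, the arrays behind the spread, and leaving out replicates or single arrays. No 2 arrays of a group shared more than 2 identical values. Promoter sequences were read from RefSeq tables of GRCh38.p14.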

Additional observations from a re-analysis of the deposited data

Results flagged for a closer look

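Over 70 genes and 140 groups of 4 arrays examined, 8 values stood apart from the other 3 arrays of their group by Dixon's criterion. Chance alone gives about 1 group in 20. CPA4 on the 6 h array of replicate 3 was at 1691, against 2213 to 2241 on the other 6 h arrays. TESMIN was low in replicate 3 at both times, at 21.9 at 6 h, against 49.8 to 52.3 on the others, and at 65.1 at 1 h, against 103.7 to 109.7. SEPTIN7P13 was low on the 6 h array of replicate 4, at 87.3 against 112.8 to 116.3, and high on the 1 h array of replicate 1, at 278.3 against 180.1 to 191.9. ASPM was low on the 1 h array of replicate 4, at 3775 against 4495 to 4582, CKAP5 low on the 6 h array of replicate 3, at 2302 against 2799 to 2853, and PRC1 high on the 1 h array of replicate 2, at 8971 against 7717 to 7870.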

How the results depend on the processing

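The number of genes called in vehicle 6 h against 1 h, 240 as reported, was 1397 with the replicate block, 736 with the replicate block on replicates 1, 2 and 4, 682 with the replicate block on the 8 arrays alone and 8 on those 8 arrays without it. It stayed within 1.5 times under the other planned settings, from 182 with the 16 vehicle arrays to 316 with quantile normalization, of which 204 were shared. Leaving out a replicate number or 1 array gave 69 to 210: 69, 75, 79 and 76 without replicates 1 to 4, 136 and 106 without the 6 h arrays of replicates 3 and 4, and 95 and 126 without the 1 h arrays of replicates 1 and 2. Each such fit had fewer arrays. Without replicate 3 on any of the 64 arrays, a setting chosen after seeing the data, 221 were called, 132 of them among the 240. For GSK 256066, 137 as reported, the count was 947 and 488 with the 2 blocks, 271 with quantile normalization and 35 to 103 leaving arrays out. For vehicle at 2 h, 38 as reported, it was 855 and 446 with the blocks, 8 on the 16 vehicle arrays, 61 with arrays centred on their medians and 4 to 363 leaving arrays out. For vehicle at 18 h, 315 as reported, it was 1566 and 1063 with the blocks, 552 with quantile normalization, 199 with averaged probe sets and 87 to 260 leaving arrays out. The cause was not tested. The test between the 2 courses called 0 genes under each setting. List medians kept their sign for the immediate early (-0.84 to -0.56) and mitotic genes (-0.38 to -0.28). Among genes called with or without the block and followed under each setting, those the text names or the lists hold, only KLF8 reversed, at -0.11 with averaged probe sets. Of genes called in neither, EGR4 (-0.032) and PTPRC (-0.067) reversed with averaged probe sets. FOSL2 reversed with quantile normalization (0.056), with arrays centred on their medians (0.0027) and with the block on replicates 1, 2 and 4 or without replicate 3 on any array (0.035). CDK1 reversed under those last 2 settings (0.0065). Leaving arrays out gave -0.070 to 0.075 for FOSL2, -0.097 to 0.081 for CDK1 and -0.31 to 0.015 for NR4A2. Of 70 such genes called without the block, 24 to 33 kept their call without one replicate number, 34 to 59 without a single array, 52 with averaged probe sets and 6 on the 8 arrays alone. The block ended 0 of the 70 on all 64 arrays, 8 on replicates 1, 2 and 4 and 15 of the 70 on the 8 arrays, against 64 there without it. Dim genes are limited by signal near the floor.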

Other observations

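Beyond the mitotic list, 14 further genes of the mitotic apparatus, picked from the called genes after their values were seen, were lower at 6 h. They were ASPM, CDKN3, CKAP5, CKS2, KIF4A, KNSTRN, MZT1, NCAPD2, PRC1, PRR11, SPAG5, TACC3, TROAP and UBE2S. Their log2 changes ran from -0.53 for NCAPD2, a condensin subunit, to -0.28 for CKS2, a partner of cyclin-dependent kinases. All 14 were below at 6 h without overlap. Under GSK 256066 12 of the 14 were called lower, with a median of -0.43 there and -0.46 under vehicle. Their median change from 1 h under vehicle was -0.22 at 2 h and 0.098 at 18 h. TROAP, a spindle-associated protein, was the lowest of the 14 at 18 h, with -0.70.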
